A study of Mus musculus with 70 samples.

Results

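The parabrachial nucleus (PB) of the mouse was compared with the nuclei of the caudal hindbrain, represented by the nucleus of the solitary tract (NTS) and the dorsal vagal complex (DVC). The 10 libraries concerned are 3 of PB, 4 of NTS and 3 of DVC, out of 70 libraries in the series, and they were chosen by their region labels. NTS and DVC were weighted equally, so that each library of the larger group counted for less. All 10 came from C57BL/6NTac male mice at postnatal day 56, and the labels give no treatment and no genetic change. RNA was taken from punches of frozen coronal sections, and each library pooled the tissue of several mice. The study used fewer adult mice than the 10 pools would need if none shared an animal, so some pools hold tissue of the same mice, and the tests treat all libraries as independent. The spread between libraries is therefore a spread between pools, and p-values measure that spread and not the spread between mice. A punch holds every cell type of its place, and the labels give no sorting of cells. The series is an atlas of brain regions that take part in energy balance, and the question put here is which genes set the pontine relay apart from the medullary nuclei that feed it.

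The parabrachial nucleus surrounds the superior cerebellar peduncle in the dorsolateral pons and relays visceral, taste, pain and temperature signals from the medulla to the hypothalamus, thalamus and amygdala. Its external lateral part holds neurons that make calcitonin gene-related peptide from Calca, which are known for suppressing meals during illness and threat. The NTS receives the visceral afferents of the vagus and of other cranial nerves, and together with the dorsal motor nucleus of the vagus and the area postrema it forms the dorsal vagal complex. The noradrenergic locus coeruleus and the mesencephalic trigeminal nucleus lie directly medial to PB, and serotonergic raphe nuclei lie at the midline of the same pontine level.

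Levels are gene TPM, the authors' measure of transcript abundance per length, scaled to the same total in each library. Tests used the estimated counts, with edgeR's quasi-likelihood test. Every adjusted p below is its Benjamini-Hochberg value unless another tool is named, over the 15720 genes tested in the main fit. Fits with other libraries or another filter were adjusted over the genes they tested. A log2 fold change is PB minus the mean of NTS and DVC. Its standard error is the absolute log2 fold change divided by the square root of the test's F statistic. It was worked back from the test and not estimated directly. For genes with few counts in a region it can be smaller than the error of counting alone. A gene was called when its adjusted p was under 0.05 and its log2 fold change was above 1 or below -1. Of 233 called genes of the lists and the naming rule with a mean of 0.1 TPM or more on both sides, 10 had folds of counts and of mean TPM more than 1.5 times apart, and Avil, Foxp2, Hoxb2, Hoxb3, Hoxd3, Pax5, Pnmt, Slc6a4, Tbx20 and Vipr1 are these 10. The 10 libraries held between 14746313 and 19999209 estimated counts each. Over all genes, Pearson's r of log2(TPM + 1) lay between 0.9895 and 0.9907 for pairs of PB libraries, between 0.9825 and 0.9864 for PB with NTS, and between 0.985 and 0.9869 for PB with DVC, where genes are no independent replicates. A pair of reference libraries stood apart before any test. Replicate 1 of NTS held 10330 TPM of Ttr, the thyroxine carrier of the choroid plexus, where the other NTS libraries had 2.47 to 10.7 TPM. Replicate 1 of DVC was high in Prph (148 TPM), Chat (45.4 TPM) and Mnx1 (3.86 TPM), which mark motor neurons, where the other DVC libraries had 31.6 to 38.9, 10.5 to 11.7 and 0.251 to 0.477 TPM.

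Calca, the marker given for PB, did not separate PB from the caudal hindbrain as a whole. Calca (ENSMUSG00000030669.13, chromosome 7, 114631478 to 114636357, GRCm38) stood at 28.4, 35.0 and 54.2 TPM in PB, 3.35, 7.60, 15.3 and 3.67 TPM in NTS and 86.2, 15.1 and 17.0 TPM in DVC. The PB libraries lay above all 4 NTS libraries and above 2 of the 3 DVC libraries, but below replicate 1 of DVC. The log2 fold change was 1.34 (standard error 0.68, adjusted p = 0.210) and the gene was not called. Against NTS alone it was 2.82 (standard error 0.83, adjusted p = 0.0340, which rose to as much as 0.124 and ended the call in 5 of the 10 fits that left out 1 library, those without replicates 1, 2 and 4 of NTS and replicates 2 and 3 of PB), and against DVC alone -0.14 (standard error 0.78, adjusted p = 0.952). Without replicate 1 of DVC the log2 fold change against both regions rose to 2.20 (standard error 0.49, adjusted p = 0.0128), and the value against DVC alone was 1.58 (adjusted p = 0.197). The paralog Calcb, which makes the beta form of the peptide and is made by motor neurons too, had 32.9, 4.27 and 5.93 TPM in DVC and 1.25, 1.27 and 1.02 TPM in PB, so replicate 1 of DVC was the library with the most Calcb as well. The part of motor neurons in the Calca level of that library was not tested. The transcript Calca-201, which encodes calcitonin gene-related peptide, made up 13.0, 25.6 and 51.7 TPM of the PB values, and Calca-202, which encodes calcitonin, was listed at 0 in all 10 libraries. In bulk tissue like this, fewer cells of a type and less RNA per cell cannot be told apart, for this gene and for all that follow.

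Promoters from RefSeq (GRCm38.p6, 250 bases before to 50 bases after the gene start, on the gene's strand) are shown for Calca as the named marker, for Nps as the peptide gene with the largest difference, and for Th and Slc18a2, chosen after the search as the 2 of 3 searched catecholamine genes with a match. The third, Dbh, which had the larger rise, was searched in the same way. Capitals mark TATAAA, searched on both strands, and the palindrome TGACGTCA, known as the full cAMP response element. The first letters stand in 13.6% and the second in 1.79% of 32851 promoters of this length, and the 2 motifs overlap in none of those shown.
Calca (chr7:114636308-114636607, minus strand): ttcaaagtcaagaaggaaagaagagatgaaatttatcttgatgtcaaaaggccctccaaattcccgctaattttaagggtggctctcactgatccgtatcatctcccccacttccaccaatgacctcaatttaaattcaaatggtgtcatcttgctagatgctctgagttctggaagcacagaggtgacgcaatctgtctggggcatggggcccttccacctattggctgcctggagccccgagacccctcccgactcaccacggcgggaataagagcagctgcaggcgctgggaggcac
Nps (chr7:135268369-135268668, plus strand): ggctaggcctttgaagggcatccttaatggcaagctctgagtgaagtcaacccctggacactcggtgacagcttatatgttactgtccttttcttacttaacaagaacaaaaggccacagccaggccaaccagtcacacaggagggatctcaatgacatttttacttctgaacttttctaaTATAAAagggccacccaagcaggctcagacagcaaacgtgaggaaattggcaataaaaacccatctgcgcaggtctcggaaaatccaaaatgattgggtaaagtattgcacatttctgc
Th (chr7:142899946-142900245, minus strand): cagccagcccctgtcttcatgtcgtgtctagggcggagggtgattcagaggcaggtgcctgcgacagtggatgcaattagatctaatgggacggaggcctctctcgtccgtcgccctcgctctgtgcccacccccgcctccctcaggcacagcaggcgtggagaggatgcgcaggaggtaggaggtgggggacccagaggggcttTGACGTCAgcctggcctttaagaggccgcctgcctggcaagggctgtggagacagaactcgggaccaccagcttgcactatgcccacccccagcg
Slc18a2 (chr19:59260628-59260927, plus strand): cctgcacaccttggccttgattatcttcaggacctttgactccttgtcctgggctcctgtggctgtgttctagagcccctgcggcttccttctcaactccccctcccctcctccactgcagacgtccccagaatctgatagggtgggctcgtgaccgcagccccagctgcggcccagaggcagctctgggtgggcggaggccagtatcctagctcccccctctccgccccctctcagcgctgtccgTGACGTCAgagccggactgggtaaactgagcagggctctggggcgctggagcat
The window of Nps held TATAAA, those of Th and Slc18a2 held TGACGTCA, and those of Calca and Dbh held neither. A match is a description of the letters and not a binding site.

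Over all genes, 266 were higher in PB (1.69% of those tested) and 177 were lower (1.13%). Without regard to fold, 9.71% of genes were higher and 8.20% lower at an adjusted p under 0.05, and the median log2 fold change was -0.01. Against NTS alone, 371 genes were higher (2.36%) and 192 lower (1.22%), and against DVC alone 183 were higher (1.16%) and 165 lower (1.05%). These comparisons share the PB libraries. Of the higher genes that also had a gene TPM, 239 of 262 had all 3 PB libraries above all 7 reference libraries. For the lower genes, 136 of 172 had all 3 below. Over the 15375 tested genes with a gene TPM, PB lay wholly above in 13.0% and wholly below in 4.55%. On the TPM scale the whole distribution was shifted toward PB, with a median log2 fold change of 0.11 against NTS and 0.05 against DVC in limma on log2(TPM + 0.5), which touches these shares and not the calls from counts. A minimum of 5 TPM on the higher side, together with matched transcripts that account for the gene TPM, left 132 higher and 80 lower genes, of which 131 and 78 are protein-coding.

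**Figure D1:**
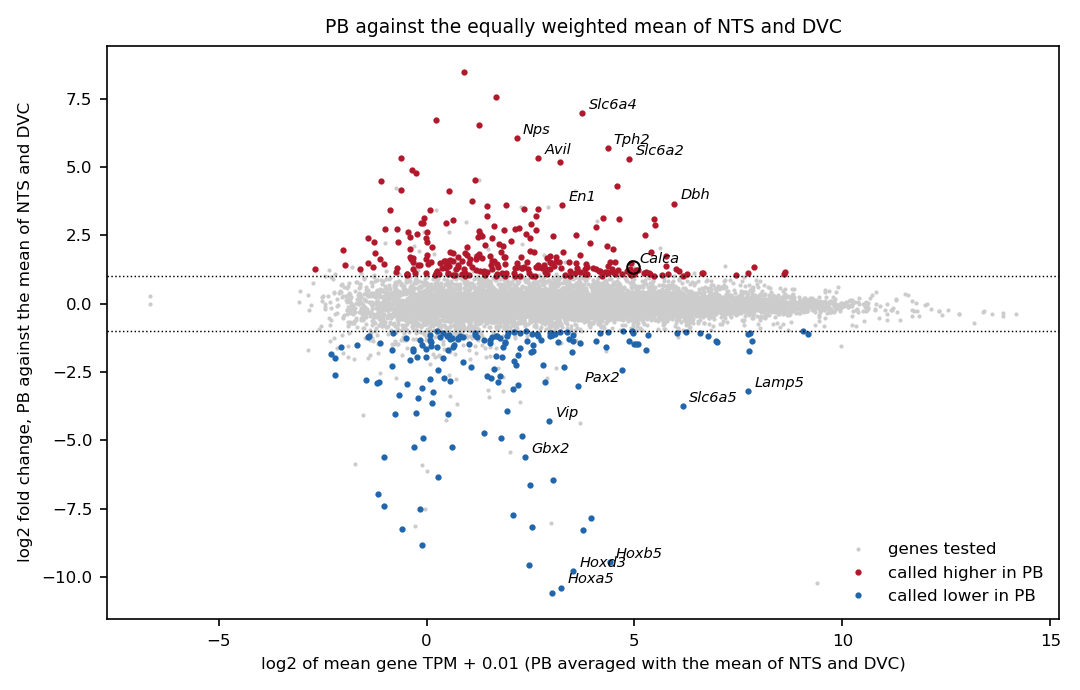
Log2 fold change of PB against the equally weighted mean of NTS and DVC, for each gene tested, plotted against log2 of the mean gene TPM plus 0.01. Red points are the 266 genes called higher and blue points the 177 called lower, the dotted lines mark 1 and -1, and Calca is circled. Hox genes reach lowest among the called genes, near -10, and the monoamine genes Slc6a4, Tph2, Slc6a2 and Dbh lie with Nps, Avil and En1 in the upper part.

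Among 9 genes taken as parabrachial markers, 4 were higher, none was lower and 5 did not pass. Among those that rose were Nps, the precursor of neuropeptide S, and Foxp2 and Lmx1b, which mark glutamatergic PB neurons. For Foxp2 the values were 8.68, 11.6 and 9.46 TPM in PB, 3.07, 8.55, 5.85 and 2.46 TPM in NTS and 5.10, 5.19 and 4.79 TPM in DVC. Its lowest PB library was only just above the highest NTS library, and the log2 fold change was 1.69 (standard error 0.12, adjusted p = 5.84e-06). On the TPM scale the difference was smaller, at 0.98 in limma on log2(TPM + 0.5) (adjusted p = 0.0524), and Foxp2 was not called. Lmx1b had 6.99, 11.99 and 12.5 TPM in PB, 4.28, 1.73, 3.33 and 5.00 TPM in NTS and 3.84, 3.94 and 4.43 TPM in DVC, wholly above the reference, with a log2 fold change of 1.16 (standard error 0.22, adjusted p = 0.00411). The 5 that did not pass were Calca, Nts (0.60), Tac1 (0.24), Pdyn (0.96) and Slc17a6 (0.28). Slc17a6, the vesicular glutamate transporter of the brainstem, reached an adjusted p of 0.0326 and lay above all reference libraries, but by a small difference. Of 14 genes taken as caudal markers, 12 were tested and all 12 were lower in PB. They include the Hox genes of paralog groups 3 to 5 and Slc6a5. Those Hox genes passed the filter on low counts through NTS and DVC, so the count follows in part from the filter. The remaining pair, Gcg and Gfral, were too low to be tested, and Gcg was listed at 0 in PB against 9.34, 6.58 and 0.763 TPM in DVC.

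Of 56 neuropeptide precursors, 32 were tested, 4 were higher (Nps, Trh, Grp and Nmb), 3 were lower (Vip, Cartpt and Nppc) and 25 were not called. The median log2 fold change of the 32 was 0.18, against -0.01 over all genes. Nps (ENSMUSG00000073804.5, chromosome 7, 135258703 to 135272942, GRCm38) promotes arousal and reduces anxiety-like behaviour. It was measured at 7.01, 9.21 and 10.3 TPM in PB, 0, 0.153, 0.341 and 0.288 TPM in NTS and 0, 0.0958 and 0 TPM in DVC. Counts were 168 over the PB libraries, 7 over NTS and 1 over DVC, so few reads came from the reference libraries and the log2 fold change of 6.06 (standard error 0.50, adjusted p = 1.87e-05) carries the error of those few counts. Grp, gastrin-releasing peptide, had 22.0, 17.0 and 21.6 TPM in PB, 2.58, 0.788, 3.31 and 2.17 TPM in NTS and 4.06, 5.23 and 7.07 TPM in DVC. The groups did not overlap, every DVC library lay above every NTS library, and the log2 fold change was 2.52 (standard error 0.27, adjusted p = 1.08e-04). Nmb, the related neuromedin B, had 11.7 TPM ± 0.409 in PB, 3.95 TPM ± 0.877 in NTS and 5.83 TPM ± 1.64 in DVC (SD, n = 3, 4 and 3), with a log2 fold change of 1.38 (standard error 0.23, adjusted p = 0.00200). Trh, thyrotropin-releasing hormone, varied within PB, at 8.38, 3.53 and 4.47 TPM, yet stayed above the 0.244 to 1.39 TPM of the reference libraries (log2 fold change 2.84, standard error 0.40, adjusted p = 6.67e-04).

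The peptide genes that fell had different patterns in the 2 reference regions. Vip, vasoactive intestinal peptide, had 0.267, 0.851 and 1.15 TPM in PB, 26.4, 15.6, 9.99 and 21.2 TPM in NTS and 6.88, 14.0 and 12.6 TPM in DVC. It was near 1 TPM or below in PB, its mean was highest in NTS, and it had a log2 fold change of -4.30 (standard error 0.47, adjusted p = 1.19e-04). Cartpt, whose peptide lowers food intake, had 8.16, 9.83 and 9.79 TPM in PB, 13.1, 16.5, 14.7 and 12.6 TPM in NTS and 53.4, 35.5 and 51.6 TPM in DVC. Its log2 fold change was -0.80 against NTS (adjusted p = 0.00571) and -2.38 against DVC (adjusted p = 1.39e-05), and -1.59 against both (adjusted p = 5.55e-05). Nppc, C-type natriuretic peptide, followed the same order of regions, at 6.55, 5.46 and 3.47 TPM in PB, 10.8, 12.6, 13.3 and 14.1 TPM in NTS and 20.6, 21.8 and 24.4 TPM in DVC (log2 fold change -1.78, standard error 0.18, adjusted p = 8.31e-05). Other feeding peptides were high in PB without a call. Penk, the enkephalin precursor, had 203, 234 and 209.6 TPM in PB, 133, 90.9, 91.8 and 152 TPM in NTS and 276, 384 and 292 TPM in DVC, so that PB lay between the reference regions and the weighted difference was 0.08. Adcyap1, the precursor of PACAP, had 33.3, 46.4 and 41.0 TPM in PB with a log2 fold change of 0.61 and an adjusted p of 0.0201, and its highest DVC library lay above its lowest PB library. Gal, galanin, was higher than NTS (log2 fold change 2.06, adjusted p = 0.00554) and not called against DVC (log2 fold change -0.33, adjusted p = 0.723). Without replicate 1 of DVC, where it had 64.1 TPM, Gal was called against both regions at a log2 fold change of 1.14 (adjusted p = 0.0301), and the list then had 8 higher genes in place of 4. Prlh, prolactin-releasing peptide, was listed at 0 in every PB and NTS library and at 13.7, 3.57 and 3.39 TPM in DVC, and was not tested. Rln3, relaxin-3 of the nucleus incertus, was also not tested. It is named here after its values were seen, since it stood at 0.793, 0.505 and 19.5 TPM in PB and at 0.215 to 1.14 TPM in the reference libraries, a level carried by replicate 3 of PB.

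**Figure D2:**
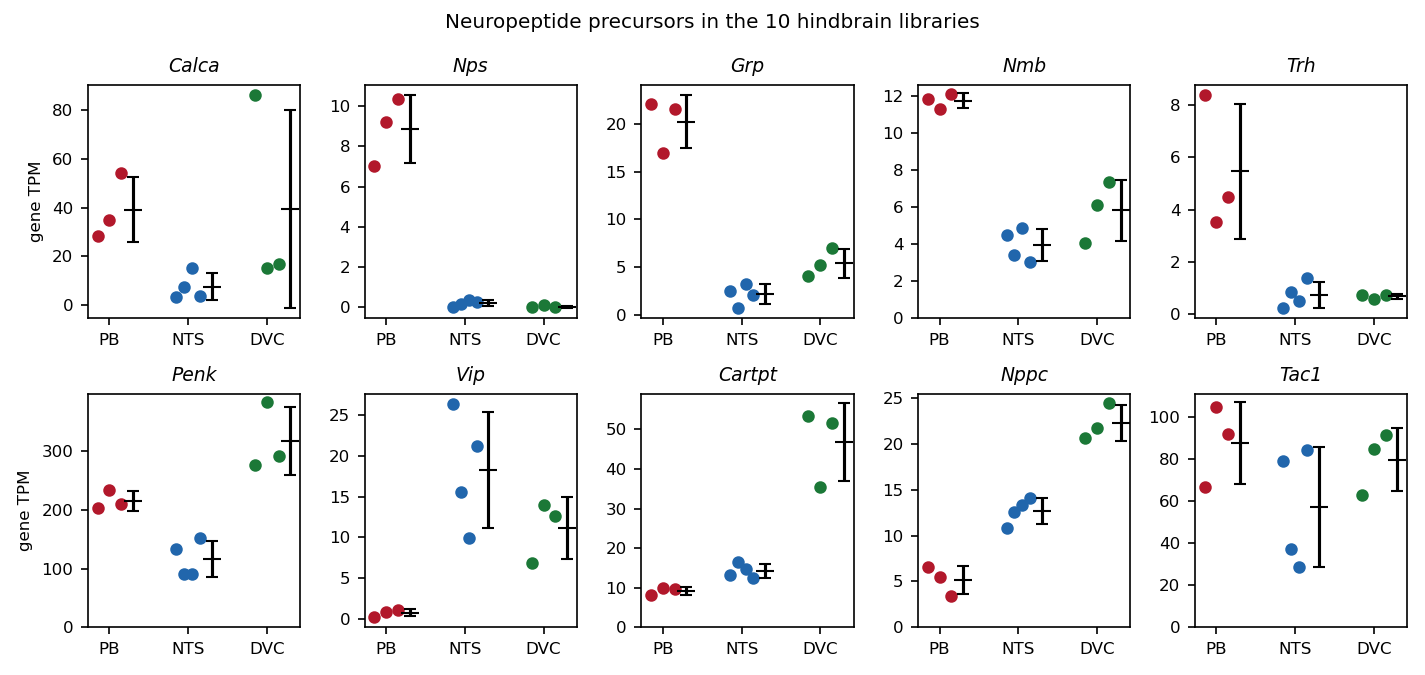
Gene TPM of 10 neuropeptide precursors in each PB (red), NTS (blue) and DVC (green) library, with the mean and SD as the black mark and bar beside each group (n = 3, 4 and 3). Nps, Grp, Nmb and Trh have all PB points above the rest, Vip, Cartpt and Nppc have all below, and Calca overlaps through 1 DVC library at 86.2 TPM.

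Receptors for peptides and feeding hormones included the amylin, orexin and neuropeptide S receptors among the higher genes. Of 60 listed, 57 were tested, 9 were higher, 1 was lower and 47 were not called, with a median of 0.08. Calcr, the calcitonin and amylin receptor, showed 9.92, 7.40 and 16.5 TPM in PB, 0.791, 1.16, 1.09 and 0.917 TPM in NTS and 1.16, 1.40 and 0.873 TPM in DVC and a log2 fold change of 3.20 (standard error 0.23, adjusted p = 6.85e-06). Ramp3, the accessory protein that turns it into an amylin receptor, had 5.58 TPM ± 1.00 in PB, 0.968 TPM ± 0.414 in NTS and 2.60 TPM ± 0.884 in DVC (SD, n = 3, 4 and 3), with a log2 fold change of 1.69 (standard error 0.30, adjusted p = 0.00261). Both were wholly above the reference. Calcrl, which forms the receptor for calcitonin gene-related peptide, was not called (log2 fold change -0.24, adjusted p = 0.340). Hcrtr1, the orexin receptor of noradrenergic neurons, stood at 15.8, 15.3 and 17.0 TPM in PB, 4.57, 5.87, 4.30 and 4.28 TPM in NTS and 6.52, 6.42 and 5.63 TPM in DVC, with little spread within a region and a log2 fold change of 1.51 (standard error 0.10, adjusted p = 4.89e-06). Brs3, an orphan bombesin-like receptor that lowers body weight, was low in PB and lower still in the reference, at 1.62, 1.28 and 1.57 TPM in PB, 0, 0.0783, 0.159 and 0.0381 TPM in NTS and 0.0428, 0.0334 and 0 TPM in DVC (log2 fold change 4.90, standard error 0.52, adjusted p = 9.85e-05).

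The other receptors called higher were at a few TPM or less. Npsr1, the receptor of neuropeptide S, had 2.08, 0.985 and 1.13 TPM in PB against 0.309 to 0.812 TPM in the reference, with a log2 fold change of 1.44 (adjusted p = 0.0109). Mc3r, a melanocortin receptor, had 0.999, 1.38 and 1.07 TPM in PB against 0.0869 to 0.4998 TPM in the reference, with a log2 fold change of 1.71 (adjusted p = 0.0107). Rxfp3, the relaxin-3 receptor, reached a log2 fold change of 1.11 (adjusted p = 0.00473) and also did not overlap. Prlhr (1.40) and Vipr1 (1.14) were called although their TPM overlapped. Leaving out 1 library ended the call of Prlhr in 6 of 10 fits (replicates 2 and 3 of PB, 2 and 3 of NTS, 1 and 3 of DVC, adjusted p up to 0.177) and that of Vipr1 in 4 (all 3 of PB and replicate 1 of DVC, adjusted p up to 0.108). Without replicate 2 of PB, Mc3r (adjusted p = 0.0705), Npsr1 (0.0573 at most, also without replicate 3) and Rxfp3 (log2 fold change 1.00) were not called, and the list had 5 higher genes. Oprd1, the delta opioid receptor, was the lower gene of the list, at 3.51, 4.08 and 3.29 TPM in PB, 6.31, 6.46, 6.21 and 7.02 TPM in NTS and 8.45, 6.30 and 7.19 TPM in DVC (log2 fold change -1.01, standard error 0.11, adjusted p = 1.12e-04), and it fell below the required fold, at -0.94 to -0.99, without replicate 1 or 3 of PB, 4 of NTS or 1 of DVC. Mc4r, the melanocortin receptor mutated in severe obesity, was at 3.17, 3.56 and 2.32 TPM in PB and 2.79 to 5.97 TPM in the reference, with a log2 fold change of -0.72 (adjusted p = 0.0359). Lepr, the leptin receptor, was low in PB, at 1.28, 1.29 and 1.03 TPM, just below the 1.30 to 5.91 TPM of the reference, while its log2 fold change of -0.82 had an adjusted p of 0.183. Tacr1, the substance P receptor of PB projection neurons, was wholly above the reference with a log2 fold change of 0.81 (standard error 0.14, adjusted p = 0.00265), short of the fold required.

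Genes of noradrenaline synthesis and transport were among those with the largest differences. Of 18 genes that mark the locus coeruleus, all 18 were tested, 12 were higher and none was lower, with a median log2 fold change of 1.62. Dbh, which makes noradrenaline from dopamine, had 89.0, 92.7 and 163 TPM in PB, 3.38, 20.6, 6.71 and 3.45 TPM in NTS and 9.63, 7.62 and 8.88 TPM in DVC. Every PB library was far above the highest reference library, replicate 2 of NTS, and the log2 fold change was 3.66 (standard error 0.42, adjusted p = 1.64e-04). Slc6a2, the noradrenaline transporter, had 41.6, 44.8 and 84.6 TPM in PB, 0.726, 8.63, 1.08 and 0.408 TPM in NTS and 0.618, 0.314 and 1.28 TPM in DVC and a log2 fold change of 5.28 (standard error 0.66, adjusted p = 2.98e-04). Th, which makes the dopamine precursor, had 61.3, 72.0 and 104 TPM in PB, 7.41, 21.5, 7.00 and 6.50 TPM in NTS and 10.4, 7.69 and 13.5 TPM in DVC (log2 fold change 2.86, standard error 0.30, adjusted p = 1.03e-04). Replicate 2 of NTS was the reference library with the most of all 3 genes, and replicate 3 was the PB library with the most. Slc18a2, which loads monoamines into vesicles, Ddc and Gch1 rose by 3.09, 1.88 and 2.17 on the log2 scale. Phox2a, a factor needed for noradrenergic neurons, was higher (log2 fold change 1.72, adjusted p = 2.47e-04). Pnmt, which makes adrenaline, was lower in PB, with 0.247, 0 and 0.246 TPM in PB against 0.444 to 3.32 TPM in the reference (log2 fold change -2.76, adjusted p = 0.0466), a call that ended without replicate 1, 2 or 3 of PB, 3 or 4 of NTS, or 3 of DVC (adjusted p up to 0.164). The list also took in Fibcd1, Ptger3 and Gpx3, of which Ptger3 was not called without replicate 2 of PB (adjusted p = 0.054) and Gpx3 was near the fold required, at 0.92 to 0.99 without replicate 3 of PB, 4 of NTS or 2 of DVC. The summed TPM of the 18 markers was 623.0 to 913 in PB, 178.7 to 253 in NTS and 258.5 to 442 in DVC. Hcrtr1, Calcr and Ddc of this list are also counted in other lists. Which part of the noradrenergic levels in PB comes from the neighbouring locus coeruleus was not tested.

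Serotonergic genes were also higher, and they differed widely between the PB libraries. Of 9 raphe markers, 8 were tested and 7 were higher, with a median of 2.28. Tph2, the enzyme of neuronal serotonin synthesis, had 79.8, 8.69 and 31.8 TPM in PB, 0.440, 0.8294, 0.504 and 0.767 TPM in NTS and 1.68, 0.460 and 0.449 TPM in DVC. Slc6a4, the serotonin transporter, had 52.6, 3.99 and 22.7 TPM in PB, 0.154, 0.219, 0.0404 and 0.116 TPM in NTS and 1.44, 0.0439 and 0.0862 TPM in DVC. Replicate 1 of PB held the most of both and replicate 2 the least, and even replicate 2 was above every reference library. The log2 fold changes were 5.69 (standard error 0.58, adjusted p = 8.11e-05) and 6.96 (standard error 0.77, adjusted p = 1.32e-04). Fev, the serotonergic factor, was too low to be tested and had 5.60, 0.438 and 2.58 TPM in PB. The summed TPM of the list was 279, 87.1 and 162 in the 3 PB libraries and 25.5 to 43.6 in the reference. The higher genes of the list include Ddc, En1 and Gata3, which are also counted in other lists. In replicate 2 of PB, En1 had 18.7 TPM, more than each of Tph2, Slc6a4 and Fev there. Neither the count nor the sum is therefore a measure of serotonergic genes alone. Without replicate 1 of PB, the list kept 5 of its 7 calls and lost Slc17a8 (log2 fold change 0.81, adjusted p = 0.0991) and Slc22a3 (log2 fold change 0.91, adjusted p = 0.101). Central lobule punches (CENT2), whose section also held PB, carried Tph2 at 146, 65.0, 0.270 and 3.27 TPM in their 4 libraries. In the cerebellar nuclei (CBN), Dbh stood at 2.32, 114 and 57.5 TPM and Nps at 0, 7.55 and 1.38 TPM, so the punches of 2 other regions held the same genes in some libraries and not in others.

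**Figure D3:**
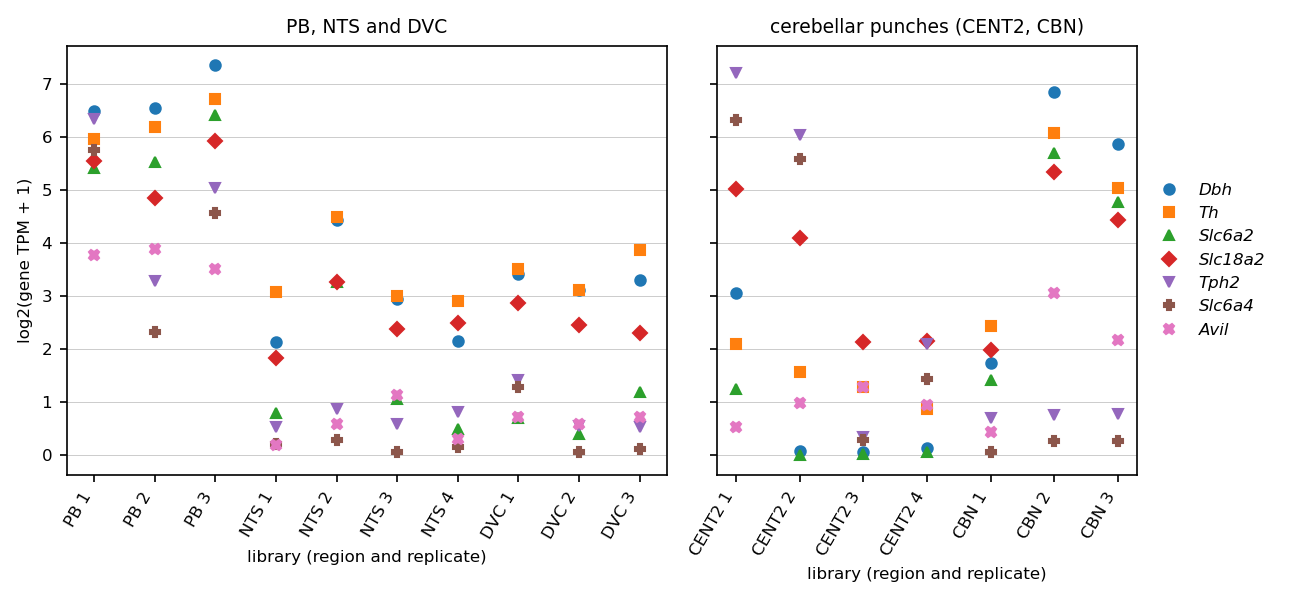
Log2(gene TPM + 1) of 6 monoamine genes and Avil in each PB, NTS and DVC library (left) and in each library of 2 cerebellar regions (right). In PB, Dbh, Th and Slc6a2 are high in all 3 libraries while Tph2 and Slc6a4 are highest in replicate 1 and lowest in replicate 2. CENT2 replicates 1 and 2 carry Tph2 and CBN replicates 2 and 3 carry Dbh.

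Markers of the neighbouring mesencephalic trigeminal nucleus moved in both directions. Of 13 listed, 11 were tested, 2 were higher and 2 lower, with a median of -0.20. Avil, the actin-binding protein advillin of sensory neurons, had 12.7, 13.8 and 10.4 TPM in PB, 0.143, 0.498, 1.20 and 0.242 TPM in NTS and 0.649, 0.506 and 0.642 TPM in DVC with little spread within a region (log2 fold change 5.34, standard error 0.22, adjusted p = 1.84e-07). Piezo2, the touch and proprioception channel, had 3.23, 3.04 and 2.65 TPM in PB against 0.730 to 1.24 TPM in the reference (log2 fold change 2.06, standard error 0.13, adjusted p = 2.90e-06). Pvalb (-1.12) and Spp1 (-1.36), which many large neurons also make, were lower. Cholinergic genes were higher against NTS and not called against DVC. Chat, which makes acetylcholine, had 36.9, 30.4 and 30.7 TPM in PB, 3.50, 5.67, 6.92 and 4.51 TPM in NTS and 45.4, 10.5 and 11.7 TPM in DVC, and its log2 fold change of 1.52 (adjusted p = 0.0181) was made of 2.55 against NTS and 0.50 against DVC. Slc5a7 and Slc18a3, the choline and vesicular acetylcholine transporters, gave 0.99 and 0.93 and were not called. The Chat call ended without any 1 PB library (adjusted p of 0.055 to 0.0749), whereas without replicate 1 of DVC Slc5a7 (log2 fold change 1.62, adjusted p = 7.87e-05) and Slc18a3 (log2 fold change 1.51, adjusted p = 0.00206) were called, and the list had 4 higher genes. Mnx1, which marks motor neurons, was listed at 0 in all PB libraries, and of the 12 markers of pontine cholinergic and motor neurons 11 were tested, 1 was higher and 1 lower. Nos1, neuronal nitric oxide synthase, had 93.2, 74.8 and 83.0 TPM in PB, 23.4, 22.2, 17.4 and 24.5 TPM in NTS and 25.6, 23.1 and 29.2 TPM in DVC, with a log2 fold change of 1.73 (standard error 0.10, adjusted p = 1.76e-06).

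Hox genes, which record the position of hindbrain segments along the neural axis, were nearly absent from PB. Of 39 listed, 19 were tested, 17 were lower, 1 was higher and 1 was not called, with a median log2 fold change of -6.64, also with the 5 genes that had no count in PB set at their bound. Genes with few or no counts in PB passed the filter on low counts only through NTS and DVC, where they are high. Hox genes low in all 3 regions were left untested, so this count and this median follow in part from the filter. Summed over the list, Hox genes amounted to 2.77 to 3.57 TPM in PB, 87.2 to 123 in NTS and 318 to 414 in DVC. Hoxa5 (ENSMUSG00000038253.6, chromosome 6, 52201754 to 52204587, GRCm38) had no count in the 3 PB libraries and 2.13, 3.23, 4.24 and 2.38 TPM in NTS and 36.1, 39.5 and 28.6 TPM in DVC. With a floor of 3 counts over the PB libraries, it was at least 282-fold lower in PB, and Hoxa4 and Hoxc5, also with no count there, were at least 202-fold and 132-fold lower. Hoxd3 had 0, 0 and 0.508 TPM in PB, 20.1, 21.5, 12.5 and 22.1 TPM in NTS and 24.7, 25.8 and 28.9 TPM in DVC, with a single count in PB. Hoxb5 had 0, 0.0670 and 0 TPM in PB, 3.14, 4.26, 5.81 and 7.08 TPM in NTS and 87.8, 91.0 and 60.1 TPM in DVC, also with 1 count in PB, so that DVC held by far the most. Hoxb3, with 7 counts in PB, had 0.296, 0.408 and 0.645 TPM in PB, 24.7, 25.8, 17.9 and 25.9 TPM in NTS and 33.5, 38.1 and 40.1 TPM in DVC and a log2 fold change of -7.85 (standard error 0.29, adjusted p = 1.84e-07).

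The paralog groups differed between the reference regions. Hoxb2 had 8.79 to 12.5 TPM in NTS and 19.5 to 24.4 TPM in DVC. Hoxb4 had 2.97 to 4.72 TPM and 15.4 to 23.3 TPM, and Hoxc4 had 7.70 to 11.98 TPM and 35.7 to 48.4 TPM. The PB level of these genes was 0.0793 to 0.164 TPM, 0 to 0.176 TPM and 0 to 0.133 TPM. Hoxb6 was close to 0 in NTS as well, at 0 to 0.225 TPM, and its lower level in PB rests on DVC, where it had 8.36 to 11.2 TPM. It was not called with all 70 libraries in the fit (adjusted p = 0.0724) or with NTS and DVC as 1 group (adjusted p = 0.104). The same holds for Hoxa6, at 0 to 0.455 TPM in NTS and 2.58 to 3.75 TPM in DVC, whose call ended in 8 of the 10 fits that left out 1 library, all but those without replicates 1 and 4 of NTS (adjusted p up to 0.0911). Hoxd1 (-1.74) had the smallest difference among the 17 and was not called without replicate 1 or 3 of PB (adjusted p up to 0.0818). Hoxd13, a gene of the tail end of the axis, went the other way at a low level, 0.678, 0.648 and 0.520 TPM in PB, 0.0425, 0.264, 0.134 and 0.171 TPM in NTS and 0.0481, 0.0376 and 0.143 TPM in DVC (log2 fold change 2.39, standard error 0.47, adjusted p = 0.00513). Hoxa3 overlaps Hoxa4, Hoxa5 and Hoxa6 in the annotation, Hoxd3 overlaps Hoxd4 and Hoxc5 overlaps Hoxc6, so counts may be split within these groups.

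**Figure D4:**
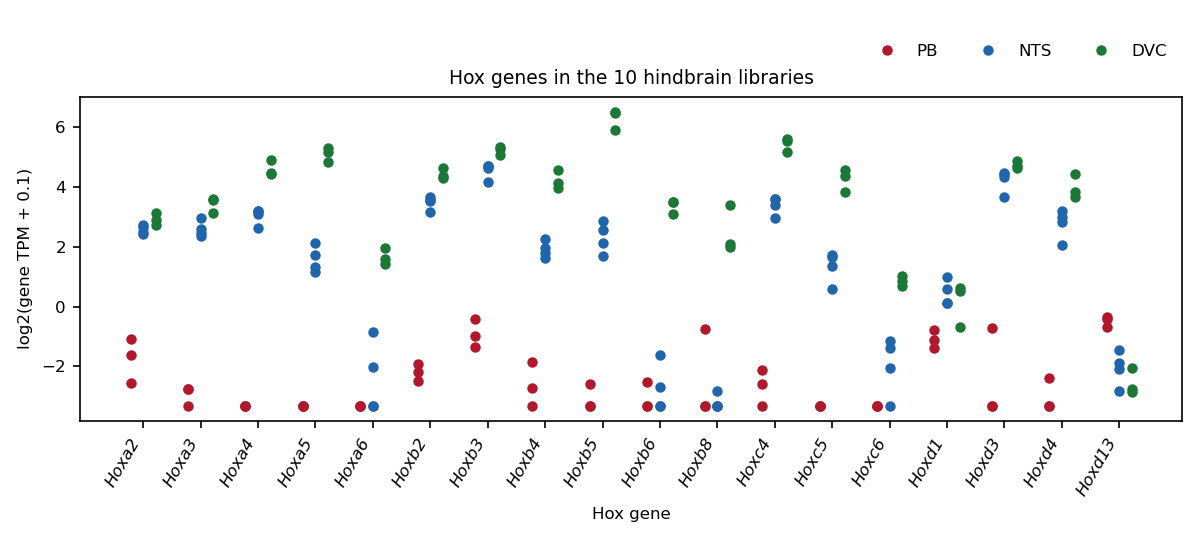
Log2(gene TPM + 0.1) of 18 of the 19 tested Hox genes in each PB (red), NTS (blue) and DVC (green) library, in which -3.3 stands for 0 TPM. PB points lie below the others except for Hoxd13, where they lie above, and for Hoxa6, Hoxb6, Hoxb8 and Hoxc6, where NTS reaches 0 or nearly so.

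Factors of the isthmus and the first rhombomere, where the cerebellum and the rostral pons arise, split into opposite groups. Of 18 listed, 15 were tested, 3 were higher, 3 lower and 9 not called, with a median of 0.50. En1 (ENSMUSG00000058665.8, chromosome 1, 120602418 to 120607992, GRCm38), an engrailed factor that maintains midbrain and rostral hindbrain neurons, had 21.9, 18.7 and 12.6 TPM in PB, 1.04, 1.49, 1.34 and 1.17 TPM in NTS and 1.13, 2.19 and 0.943 TPM in DVC (log2 fold change 3.62, standard error 0.23, adjusted p = 2.96e-06). En2 had 8.13 to 11.3 TPM in PB against 0.876 to 1.78 TPM (log2 fold change 2.91, standard error 0.22, adjusted p = 9.51e-06). Pax5 (ENSMUSG00000014030.15, chromosome 4, 44524757 to 44710487, GRCm38), a paired-box factor of the midbrain-hindbrain boundary, had 22.8, 15.7 and 13.0 TPM in PB, 0.553, 0.811, 0.521 and 4.63 TPM in NTS and 1.04, 1.496 and 0.454 TPM in DVC, with a log2 fold change of 5.19 (standard error 0.18, adjusted p = 1.84e-07). On the TPM scale the difference was smaller, at 3.49 in limma on log2(TPM + 0.5) (adjusted p = 0.00113). Its relatives went the other way. Pax2 had 3.19, 3.05 and 2.50 TPM in PB against 17.7 to 28.2 TPM in the reference (log2 fold change -3.01, standard error 0.17, adjusted p = 1.50e-06), and Pax8 had 1.51 to 6.56 TPM in PB against 11.5 to 22.0 TPM (log2 fold change -2.30, standard error 0.21, adjusted p = 4.37e-05). Gbx2, which positions the boundary from the hindbrain side, had 0.0615, 0.331 and 0.345 TPM in PB, 7.80, 3.12, 3.16 and 11.7 TPM in NTS and 12.8, 14.46 and 13.8 TPM in DVC (log2 fold change -5.60, standard error 0.59, adjusted p = 9.66e-05). Irx1, Irx2, Irx3 and Irx5 were higher at an adjusted p of 4.65e-04, 0.0290, 0.0185 and 0.00224, with log2 fold changes of 0.69, 0.50, 0.57 and 0.89, below the fold required.

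Factors of the rostral rhombic lip and of parabrachial neurons were higher in 8 of 25 tested genes and lower in 3, with a median of -0.05. Lhx9 and Lhx2, LIM factors of dorsal glutamatergic neurons, were both wholly above the reference. Lhx9 had 9.08, 12.02 and 6.68 TPM in PB, 0.584, 1.30, 0.702 and 0.561 TPM in NTS and 0.854, 0.469 and 1.38 TPM in DVC (log2 fold change 3.46, standard error 0.32, adjusted p = 4.03e-05). Lhx2 had 3.86, 4.99 and 3.06 TPM in PB, 0.206, 1.03, 0.348 and 1.51 TPM in NTS and 2.34, 0.977 and 2.10 TPM in DVC (log2 fold change 2.14, standard error 0.40, adjusted p = 0.00373), so that DVC lay between NTS and PB for most libraries. Evx1 and Evx2, neighbours of the Hox clusters, were higher as well. Evx2 had 4.97 to 6.82 TPM in PB against 0.691 to 2.27 TPM (log2 fold change 2.11, standard error 0.20, adjusted p = 4.33e-05), and Evx1 had 4.17 to 8.73 TPM against 1.48 to 2.70 TPM (log2 fold change 1.31, standard error 0.19, adjusted p = 7.49e-04). Lmx1a was called at a log2 fold change of 3.05 (adjusted p = 0.0483), with replicate 1 of NTS at 2.33 TPM inside the PB range, and its call ended in 7 of the 10 fits that left out 1 library (adjusted p up to 0.171), all but those without replicates 1, 2 and 4 of NTS. The 3 that fell were Zic1, Zic4 and Barhl1, which mark precerebellar and cerebellar granule lineages. Zic1 had 12.7, 7.45 and 7.13 TPM in PB, 37.0, 38.5, 29.0 and 34.7 TPM in NTS and 38.5, 35.5 and 80.5 TPM in DVC (log2 fold change -2.44, standard error 0.28, adjusted p = 1.64e-04), and Barhl1 had 0.154 to 0.783 TPM in PB against 1.39 to 3.89 TPM (log2 fold change -2.84, standard error 0.33, adjusted p = 1.75e-04).

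Factors of caudal visceral and sensory hindbrain neurons gave 3 higher and 7 lower genes among 25 tested, with a median of -0.20. Lbx1, which specifies dorsal interneurons, had 0.782 to 1.04 TPM in PB against 5.92 to 9.68 TPM in the reference (log2 fold change -3.11, standard error 0.22, adjusted p = 6.85e-06). Olig3, a factor of dorsal hindbrain progenitors, had no count in PB and was at least 14.7-fold lower with the floor of 3 counts over the PB libraries. Tbx20, Lhx3, Nkx6-1 and Tlx1 were lower too, with log2 fold changes of -2.89, -1.99, -1.23 and -2.81. Tlx1 was not called in 6 of the 10 fits that left out 1 library (replicates 1, 2 and 3 of PB, 2 of NTS, 1 and 2 of DVC, adjusted p up to 0.174), nor was Tbx20 without replicate 1 or 2 of PB (adjusted p up to 0.0561). Gata3, a factor of serotonergic and inhibitory neurons, was higher at 15.7, 6.96 and 9.88 TPM in PB, 1.71, 1.30, 1.73 and 1.15 TPM in NTS and 1.73, 1.37 and 1.71 TPM in DVC (log2 fold change 2.69, standard error 0.27, adjusted p = 7.55e-05), with its order over the PB libraries the same as that of Tph2. Tlx3 was higher by a log2 fold change of 1.33 (adjusted p = 0.00925), with an overlap in 1 DVC library, and was not called without replicate 2 of PB (log2 fold change 1.11, adjusted p = 0.072). Isl1, a factor of motor and sensory neurons, was not called with all libraries, and was called without replicate 1 of DVC (log2 fold change 2.53, adjusted p = 0.00065).

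The glycine transporter and the main adult glycine receptor subunit were lower in PB, while the theta and epsilon subunits of the GABA-A receptor and 2 other glycine receptor subunits were higher. Slc6a5, the glycine transporter of inhibitory terminals, had 7.92, 10.8 and 12.5 TPM in PB, 137, 144, 149.5 and 156 TPM in NTS and 111, 143 and 103 TPM in DVC. The log2 fold change of -3.74 (standard error 0.17, adjusted p = 3.60e-07) was the largest fall among 26 tested genes of transmitter synthesis and transport, of which 11 were higher and 3 lower (median 0.61). Glra1, that adult subunit, had a log2 fold change of -1.39 (adjusted p = 1.48e-05), from 140.1 to 209.9 TPM in the reference to 67.7 to 79.5 TPM in PB. Gabrq and Gabre, which encode the theta and epsilon subunits found in monoaminergic neurons, had 30.9 to 41.0 TPM and 11.1 to 12.9 TPM in PB against 5.66 to 11.8 TPM and 2.40 to 5.44 TPM in the reference. Their log2 fold changes were 2.01 (standard error 0.13, adjusted p = 3.36e-06) and 1.52 (standard error 0.15, adjusted p = 5.17e-05). Glra2 (1.10) and Glra4 (2.43) were also higher. Over the 21 glycine and GABA-A receptor genes, all tested, 5 were higher and 1 lower, with a median of 0.33.

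Slc32a1, Gad1 and Gad2, genes of inhibitory neurons, had log2 fold changes within 1 of 0. Slc32a1, the vesicular transporter of GABA and glycine, had 112, 97.8 and 108 TPM in PB, 152, 175, 172 and 156 TPM in NTS and 142, 209.9 and 160.4 TPM in DVC and a log2 fold change of -0.74 (standard error 0.11, adjusted p = 0.00116), wholly below the reference. Gad1 (log2 fold change 0.11, adjusted p = 0.514) and Gad2 (log2 fold change 0.13, adjusted p = 0.494), which make GABA, did not pass. Slc17a7, the other vesicular glutamate transporter, was lower at a log2 fold change of -1.02 (adjusted p = 4.34e-04), and that value was -0.61 against NTS and -1.42 against DVC. It fell short of the required fold, at -0.94 to -0.99, without replicate 2 of PB, 3 of NTS or 2 of DVC. Slc17a8, which serotonergic neurons carry, was higher at a log2 fold change of 1.26 (adjusted p = 0.0113).

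**Figure D5:**
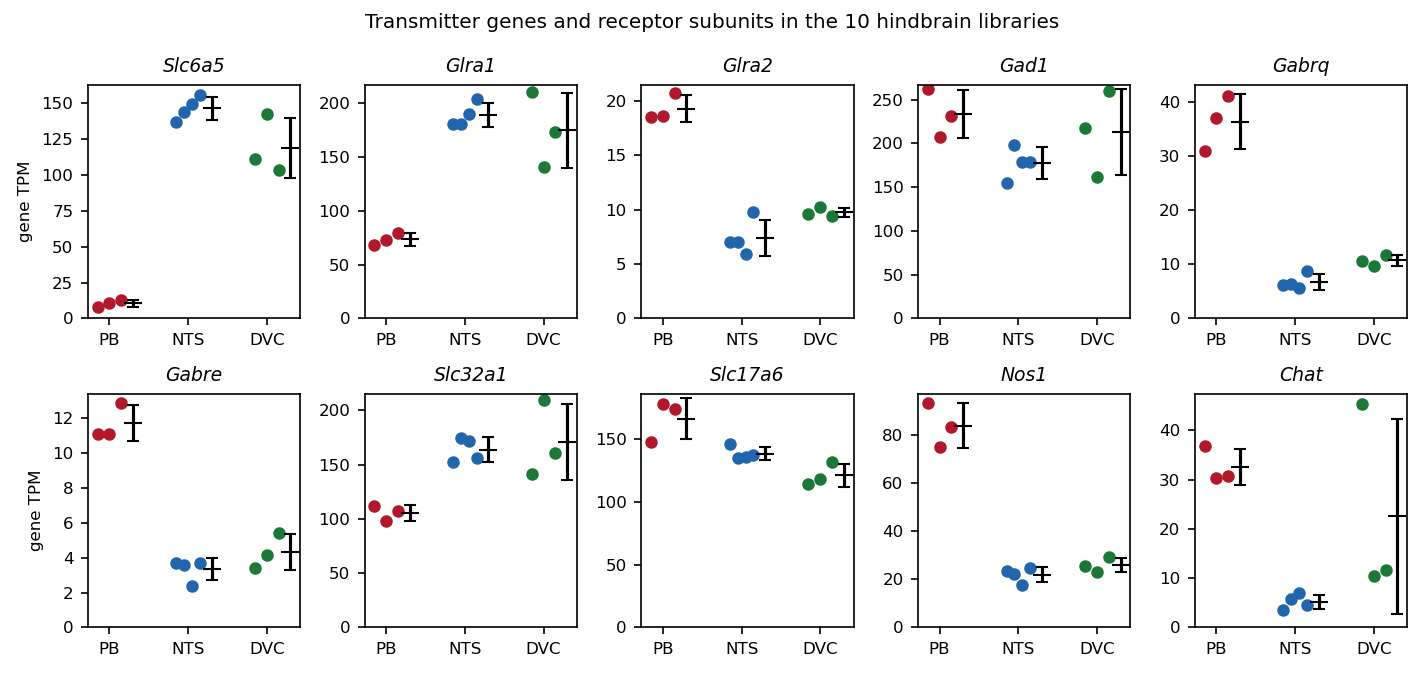
Gene TPM of 10 transmitter genes and receptor subunits in each PB (red), NTS (blue) and DVC (green) library, with mean and SD as the black mark and bar (n = 3, 4 and 3). Slc6a5, Glra1 and Slc32a1 are lower in all PB libraries, Glra2, Gabrq, Gabre, Slc17a6 and Nos1 are higher in all, and Chat and Gad1 overlap DVC.

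Voltage-gated potassium channels gave 3 higher and 2 lower genes among 30 tested, with a median of 0.07. Kcng4, a modifier subunit of these channels, had 16.2 to 18.7 TPM in PB against 35.7 to 69.9 TPM (log2 fold change -1.48, standard error 0.19, adjusted p = 3.25e-04). Kcnf1 (1.29), Kcna3 (1.12) and Kcns1 (1.02) were higher, with Kcns1 overlapping DVC and called in 5 of the 10 fits that left out 1 library (0.84 to 0.99 without replicate 2 of PB, 1 or 2 of NTS, 1 or 3 of DVC). Of 40 cadherin and guidance genes, all tested, Cdh8 (log2 fold change 1.28, standard error 0.11, adjusted p = 1.85e-05) and Dcc were higher and none was lower, with a median of 0.05. Among 9 tested genes of monogenic obesity 1 was called, Bdnf, a neurotrophin that restrains feeding, at 8.92, 8.20 and 7.45 TPM in PB, 3.28, 3.48, 2.42 and 4.28 TPM in NTS and 4.23, 4.26 and 5.05 TPM in DVC (log2 fold change 1.00, standard error 0.14, adjusted p = 5.43e-04). Its log2 fold change was close to 1, and without replicate 1 of PB, 1 or 3 of NTS, or 1 or 2 of DVC it was 0.94 to 0.99. Dcc, at 1.01, was likewise at 0.94 to 1.00 without replicate 1 or 2 of PB, 2 of NTS, or 2 or 3 of DVC. Among 13 tested immediate early genes only Nr4a3 was called (log2 fold change 1.73, standard error 0.16, adjusted p = 5.13e-05), while Fos (log2 fold change -0.44, adjusted p = 0.0743) did not pass.

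Of the 12 higher genes with the largest folds, 3 have not been described yet. C1ql4, a secreted C1q-like synaptic protein, had 45.0, 58.7 and 32.8 TPM in PB, 1.83, 5.55, 1.92 and 1.71 TPM in NTS and 1.60, 1.87 and 1.58 TPM in DVC (log2 fold change 4.31, standard error 0.30, adjusted p = 6.17e-06), with the highest reference value in replicate 2 of NTS. Chrna6, a nicotinic receptor subunit of catecholamine neurons, had 6.03 to 7.38 TPM in PB against 0.0724 to 1.42 TPM (log2 fold change 3.61, standard error 0.34, adjusted p = 4.81e-05). Ap3s1-ps2, a processed pseudogene, had 2.91, 7.39 and 8.61 TPM in PB and no count in the reference, at least 56-fold higher with a floor of 3 counts over the 7 reference libraries, and its reads may belong to the parent gene. With these, the 12 higher genes with the largest folds were Ap3s1-ps2, Slc6a4, Nps, Tph2, Avil, Slc6a2, Pax5, C1ql4, Dbh, En1, Chrna6 and Lhx9. The 12 lower genes were Gbx2 and the 11 Hox genes Hoxa3, Hoxa4, Hoxa5, Hoxb2, Hoxb3, Hoxb4, Hoxb5, Hoxc4, Hoxc5, Hoxd3 and Hoxd4.

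Among the 132 higher genes at 5 TPM or more, 26 had their highest mean over the 18 adult regions in PB, and 11 of these had every PB library above every other adult library. Chosen after their values were seen, those 11 were Avil, C1ql4, Epb41l4a, Evx1, Evx2, Gpsm3, Hcrtr1, Irx4, Npas1, Npnt and Spx. Of the 132, the arcuate nucleus held the highest mean of 25, the entorhinal area of 15 and the ventral tegmental area of 12. All 132 had been chosen as higher in PB than in NTS and DVC. The shares over all genes were not computed, so these counts show no trait particular to PB. Spx, the precursor of spexin, had 34.4 TPM ± 12.6 in PB (SD, n = 3), with the cerebellar uvula next at 6.82 TPM. Npnt, the matrix protein nephronectin, had 29.5 TPM ± 1.53, with the frontal pole cortex next at 17.2 TPM, and Irx4 had 8.97 TPM ± 0.262, with NTS next at 1.54 TPM. For Dbh, Slc6a2, Phox2a, Nps and Avil the region second to PB was CBN, whose libraries ranged widely. Pax5 was second highest in the ventral tegmental area, at 13.2 TPM ± 6.49 (SD) against 17.2 TPM ± 5.05 in PB, and these means differ by less than the spread between libraries.

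No marker of glia, vessels, choroid plexus or ependyma was called in the main test. Some markers of meninges, cerebellum, and area postrema and dorsal vagal cells were called. Over all genes tested, 1.69% were called higher and 1.13% lower. At an adjusted p under 0.05 and any fold, 9.71% of all genes were higher and 8.20% lower. Of 18 astrocyte markers, 11 were lower at an adjusted p under 0.05 and none was called, with a median of -0.35 and a summed TPM of 3893 to 3960 in PB against 4366 to 5080 in the reference. Gfap, the intermediate filament of astrocytes, had a log2 fold change of -0.96 and was called lower, at -1.01 to -1.18, in 4 of the 10 fits that left out 1 library (without replicate 1 of PB, 1 or 4 of NTS or 2 of DVC). Of 16 endothelial and mural markers, 7 were lower in the same way, with a median of -0.26, and of 13 microglial markers with usable counts 3 were higher, with a median of 0.24. Oligodendrocyte markers had a median of -0.19 with 1 of 16 passing, and their precursors a median of -0.08 with 4 of 10 passing, all higher. Haemoglobin and red cell genes had a median of -1.02, with 3 of 5 called lower, with 4 to 7 fits that left out 1 library ending each call (every PB library and replicate 1 of DVC for all 3), and summed to 984.9 to 1288 TPM in PB and 1297 to 3546 TPM in the reference. No choroid plexus or ependymal marker was called with the 10 libraries and no block, with medians of -2.49 over 12 and -0.68 over 13 tested, and Ttr was below 1 TPM in all PB libraries. With all 70 libraries in the fit 3 choroid markers were called lower, and with a block by run of library identifiers 5. Without replicate 1 of NTS, the library high in Ttr, Otx2 (2.35), Sostdc1 (2.14) and Slc4a5 (-1.23) of the choroid list were called. Of 12 meningeal markers tested, Col1a2 alone was lower (-1.03, and -0.93 to -0.99 in 4 of the 10 fits that left out 1 library), with a median of -0.37. Cerebellar granule cell markers gave 1 higher and 4 lower of 18, with a median of -0.19. Gabra6, which defines granule cells, was at 3.05, 0.0836 and 0.349 TPM in PB, where CENT2 libraries had 408 to 664 TPM. Purkinje and interneuron markers gave 3 higher of 14, with a median of 0.66 (Calb1, 1 of the 3, lay at 0.96 to 0.98 in 5 of the 10 fits that left out 1 library), and Pcp2 was highest in replicate 1 of PB, at 42.6, 7.22 and 4.64 TPM. Without regard to fold, 8 of these 14 were higher at an adjusted p under 0.05. Of the area postrema and dorsal vagal markers, 11 of 15 were tested, 4 were higher (Calcr, Ramp3, Prlhr and Chat) and 1 was lower, with a median of 0.50. Their part in the calls above was not tested.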

How the data were processed

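RNA of punched mouse brain regions was sequenced with KAPA stranded mRNA libraries as single reads of 33 cycles. Per the labels and the study's methods, the authors ran CASAVA 1.8.2 and assigned reads to GRCm38 transcripts with Kallisto. The deposited transcript tables hold estimated counts and TPM, and a gene table holds TPM summed per gene by the authors. Here estimated counts were summed per gene (98.8% of 109282 transcripts matched to a gene) and rounded, and 0.48 to 0.53% of each library's counts could not be assigned. The TPM of the matched transcripts was also summed per gene and set against the gene TPM. Genes apart by more than 5% and 0.05 TPM, or without a gene TPM (2561 names), were not named from counts. The main test was edgeR 4.0.16 (R 4.3.3), with TMM scaling, filterByExpr, 1 group per region and a quasi-likelihood test of PB minus the mean of NTS and DVC, adjusted by Benjamini-Hochberg. Alternatives used DESeq2 1.42.0 and limma 3.58.1. The edgeR test was also run on simulated data, and its outcome there is not given. Genes were named if called, if the 3 PB libraries lay wholly above or below the 7 others in TPM and if the higher side had a mean of 5 TPM or more (the 12 with the largest fold in each direction), together with members of gene lists in the account of their list and Calca. The rule, the lists and the members were chosen with earlier results of these data known. Same-numbered libraries deviated together in 4 of 9 pairs (r over 0.1). Libraries of the same run of identifiers did so in 4 of 8 pairs, some of them the same pairs. Libraries sharing neither did so in 1 of 21. The main test still treated libraries as independent, and blocks by number and by run were fitted as alternatives. Each library holds 14746313 to 19999209 estimated counts, and lowly counted genes rest on few reads. Some genes are not reported here. Python 3.11.15, pandas 2.3.3 and matplotlib 3.10.9 were used for tables and plots.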

Additional observations from a re-analysis of the deposited data

Results flagged for a closer look

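Of 25 genes screened over the 4 NTS libraries, 5 had 1 library far from the other 3, judged by its gap to the nearest library divided by the whole range, set against Dixon's critical value at 95%, a rule that chance meets in about 1 in 20 groups. In Slc6a2 the gap of replicate 2 was 0.918, at 8.63 TPM against 0.408 to 1.08 TPM. For C1ql4 it was 0.943, in the same replicate 2, at 5.55 TPM against 1.71 to 1.92 TPM. For Pax5 it was 0.929, where replicate 4 had 4.63 TPM against 0.521 to 0.811 TPM. Hoxb3 was low in replicate 3, at 17.9 TPM against 24.7 to 25.9 TPM, with a gap of 0.848. Ap3s1-ps2 gave 1.000 in replicate 3, where its 3.05e-06 TPM stands for no whole read. All 5 were named by a rule that requires PB wholly on 1 side of the NTS and DVC libraries. That separation was therefore set by the choice of genes. Whether the NTS library with more Slc6a2 also held tissue of another place was not tested.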

How the results depend on the processing

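The 266 higher and 177 lower genes became 264 and 189 in DESeq2, 301 and 184 with no filter on low counts, 293 and 167 with all 70 libraries in the fit, and 255 and 172 with NTS and DVC as 1 group. Limma on log2(TPM + 0.5) gave 235 higher and 110 lower genes, and 100 lower genes with no filter on low values, and the cause was not tested. On that scale the share of called genes that were higher was 68.1% (70.7% with no filter) where the main test had 266 of 443, and against NTS it was 78.2% in place of 65.9%. Leaving out 1 library gave 231 to 286 higher and 140 to 192 lower genes, 463 to 612 genes called against NTS and 278 to 367 against DVC. The 24 genes with the largest folds kept their calls in every alternative, except that DESeq2 gave no adjusted p for Slc6a2. With the replicate block the counts were 285 higher and 192 lower, with 593 called against NTS and 341 against DVC. Same-numbered libraries correlated at -0.009 to 0.169 in their deviations, and libraries sharing neither number nor run of library identifiers at -0.182 to 0.121. A block by run of library identifiers gave 257 and 171. Followed over 20 alternatives were 111 genes, which were some of the 443 called genes and Calca. Of these, 74 kept their side of the threshold in every alternative that gave a result for them, and none changed direction. Some of the 111 had no result in some alternatives. Among genes of the lists that were not called, 27 were called in at least 1 fit that left out 1 library, Calca among them without replicate 1 of DVC. With the replicate block 2 choroid plexus markers and 1 astrocyte marker were called lower, Hoxb6 was not called (adjusted p = 0.0716) and Calca was not called against NTS (adjusted p = 0.0854). Depth limits the Hox, Nps and Olig3 folds, which rest on few or no counts on the lower side.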

Other observations

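Beyond the comparison, cerebellar nuclei libraries held PB-enriched genes unevenly, which was noticed after the values were seen. Slc6a2 stood at 1.69, 50.8 and 26.4 TPM in the 3 cerebellar nuclei libraries, Avil at 0.353, 7.29 and 3.49 TPM, and Calca at 2.22, 21.3 and 11.9 TPM. Replicate 1 was the lowest for all 3 genes and replicate 2 the highest.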
